A study of Mus musculus with 2 samples.

Results

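Neuropeptide precursors other than somatostatin were followed in the embryonic mouse cortex at single-cell resolution. The set holds 9 of the 32285 genes listed, taken by symbol: Npy, Vip, Cck, Tac1, Penk, Pdyn, Crh, Nts and Cartpt. A neuropeptide is made as a longer precursor protein that enters the secretory pathway, is cut by prohormone convertases, trimmed and often amidated, and is stored in dense-core vesicles until release. The released peptide acts on G protein-coupled receptors of neighbouring cells. In the adult forebrain the precursors divide neurons into types: Npy with somatostatin in interneurons of the medial ganglionic eminence (MGE), Vip and Cck in interneurons of the caudal ganglionic eminence (CGE), Tac1 and Pdyn in spiny projection neurons of the direct striatal pathway (dSPN), and Penk in those of the indirect pathway (iSPN).

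The series holds 2 libraries, both wild-type (WT) controls of an Eomes-Cre line (named EomesDot in the labels; C57BL6/J per the study's account of its embryonic single-cell sets) at embryonic day (E) 16.5, and no treated or mutant group. Cerebral cortex was dissociated with papain, and polyadenylated RNA was captured in droplets with a 3′ kit that tags each molecule with a unique molecular identifier (UMI). The labels leave unsaid if cells of a library came from a single embryo, so the spread between libraries may be technical, and the Cre line was sampled here only as WT. The comparisons below are therefore between neuron types within the same libraries.

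Library 1 held 9049 barcodes and 46398156 UMIs, and library 2 held 13556 barcodes and 64324236 UMIs. Cells with 1500 to 60000 UMIs and under 10% mitochondrial UMIs were kept, which left 5966 and 10247 cells with a median of 5706 and 4938 UMIs. The libraries shared 40 barcodes, of which 21 were kept in both. Neurons were sorted into types by gates on marker genes, none of which is a member. A type gate took 3232 and 5130 neurons, and 10 types held at least 20 cells in each library, from 27 and 35 Cajal-Retzius cells to 1540 and 2578 upper-layer cells. No cell passed the subplate gate, and the hippocampal gate held 4 and 13 cells, so neither entered a test.

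The markers of each gate describe the cells it took and are no independent check of it. They are given in UMIs of a gene per 1000000 UMIs (CPM) of the summed cells. Lhx6, which specifies MGE interneurons, stood at 302 and 257 CPM in the MGE interneuron gate and at 0 in both libraries of the iSPN gate. The iSPN gate carried Drd2 at 301 and 272 CPM. In the dSPN gate Drd1, a dopamine receptor on its marker list, was near 0 at 3.45 and 5.08 CPM, so that gate rested on Isl1 and Ebf1. Excitatory gates, which limit GABAergic markers by their rule, held them at 36.9 CPM or less in sum over the list. The layer 5 gate was set apart from layer 6 only weakly. Its own marker list summed to 1518 and 1307 CPM in layer 5, 1176 and 1263 CPM in layer 6 and 461 and 410 CPM in upper layers. Of its cells, 24.4% and 32.4% held just 2 of its markers, the fewest the gate takes. The share at this minimum was 33.1% and 35.6% in the CGE gate. In the LGE-type gate (markers of the lateral ganglionic eminence) it was 50.2% and 53.2%, and the CGE marker list summed to 3726 and 2985 CPM there.

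Upstream sequence is shown for 4 of the 5 members whose levels could be compared between types. Penk, the other one, had no window in the promoter table. Each line gives the 250 bases before the RefSeq transcription start in GRCm38.p6, 5′ to 3′ on the strand of the gene, with motif matches in capitals.
Npy, chr6:49822460-49822709, plus strand: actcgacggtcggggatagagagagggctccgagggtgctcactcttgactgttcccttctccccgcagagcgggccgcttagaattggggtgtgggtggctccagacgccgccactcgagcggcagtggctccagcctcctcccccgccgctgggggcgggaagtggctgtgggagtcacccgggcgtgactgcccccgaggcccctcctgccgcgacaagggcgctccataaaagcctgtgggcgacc
Tac1, chr6:7554811-7555060, plus strand: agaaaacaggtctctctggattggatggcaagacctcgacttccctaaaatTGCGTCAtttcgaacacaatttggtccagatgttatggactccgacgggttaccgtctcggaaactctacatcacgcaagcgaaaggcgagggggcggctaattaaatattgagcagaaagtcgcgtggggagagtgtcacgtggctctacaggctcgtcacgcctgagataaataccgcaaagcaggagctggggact
Nts, chr10:102490419-102490668, minus strand: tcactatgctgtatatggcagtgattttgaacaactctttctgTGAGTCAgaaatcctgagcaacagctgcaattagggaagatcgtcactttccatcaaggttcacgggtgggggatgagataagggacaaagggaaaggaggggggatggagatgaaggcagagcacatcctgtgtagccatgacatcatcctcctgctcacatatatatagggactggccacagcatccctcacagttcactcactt
Cck, chr9:121495695-121495944, minus strand: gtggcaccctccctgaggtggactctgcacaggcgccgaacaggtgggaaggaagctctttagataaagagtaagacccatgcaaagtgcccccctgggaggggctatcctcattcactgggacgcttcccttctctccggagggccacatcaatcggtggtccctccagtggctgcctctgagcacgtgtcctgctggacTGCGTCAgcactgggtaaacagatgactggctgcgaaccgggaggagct

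Each of 4 motifs was searched on both strands: the cAMP response element TGACGTCA, its variant TGCGTCA, the AP-1 site TGACTCA, and TATAAA. Tac1 and Cck each carried TGCGTCA, starting at −199 and −49 from the start site, and 1.747% of the 32851 promoter windows held that motif. Nts held the AP-1 letters on the opposite strand, beginning at −207, as did 4.463% of windows. The Npy window held none of the 4, which says only that these letters are not in it. Of the members without printed sequence, Cartpt had TGACGTCA at −112 (1.546% of windows) and Vip had TATAAA (12.368%), Pdyn had no match, and Penk and Crh were not in the table. The bodies of the genes lie at chr6:49822710-49829507 (Npy), chr6:7555061-7562978 (Tac1), chr10:102481756-102490418 (Nts), chr9:121489824-121495694 (Cck) and chr4:4133536-4138815 (Penk).

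Of the members, 5 were present at a level that could be compared between types, and 4 were close to absent. Over all kept cells of libraries 1 and 2, Npy had 2592 and 3583 UMIs, Cck 365 and 578, Tac1 352 and 256, Nts 196 and 781, and Penk 64 and 164. The other 4 members, Vip, Pdyn, Crh and Cartpt, had between 2 and 16 UMIs in a library and did not pass the filter on low counts. Of the 14 Vip UMIs, 9 lay in a single GABAergic cell of library 2 that no subtype gate took, and the CGE interneuron gate held 0 Vip UMIs in both libraries. A total of 0 among 157 and 233 CGE cells allows up to 4.17 and 2.94 CPM, taken as the level of 3 UMIs and covering counting error only. Crh, the stress-axis releasing hormone, was found at 2.15 and 2.06 CPM in radial glia (6 and 7 UMIs). Pdyn, the dynorphin precursor, had 1 UMI in the dSPN gate of each library, and Cartpt did not exceed 2.28 CPM in any type of the test.

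**Figure D1:**
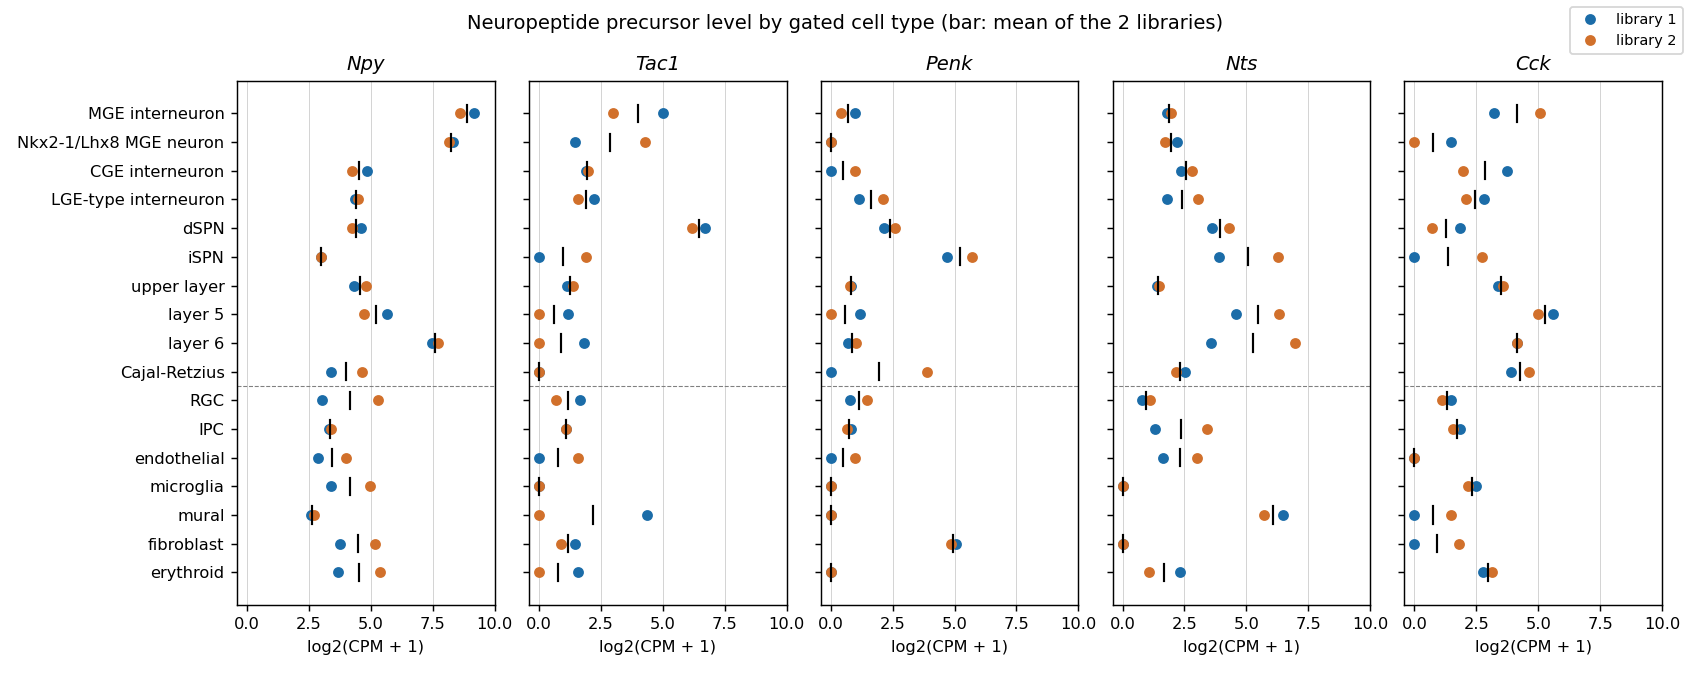
Level of each of the 5 measurable precursors as log2(CPM + 1), for 10 neuron types above the dashed line and 7 other cell types below it (RGC, radial glia; IPC, intermediate progenitor cells). Points are the 2 libraries and bars their mean. Npy stands highest in the MGE types and layer 6, Tac1 in dSPN, Penk in iSPN and fibroblasts, and Nts in layer 5, layer 6, iSPN and mural cells.

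Npy was the most abundant member, and its level set MGE-derived interneurons apart from CGE-derived ones. It encodes neuropeptide Y, an inhibitory peptide that acts on Npy1r, Npy2r and Npy5r. MGE interneurons held 572 and 385 CPM in libraries 1 and 2 (478 ± 132, SD, n = 2), and CGE interneurons 27.8 and 17.6 CPM (22.7 ± 7.19). Both MGE libraries lay above both CGE libraries, with a log2 fold change of 4.44 ± 0.34 (SE; adjusted p = 1.11e-06, edgeR quasi-likelihood test with Benjamini-Hochberg adjustment). It was the 1 member of 5 tested that was called in this comparison, where 4.22% of 14373 genes were called higher and 3.16% lower in MGE interneurons.

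Cck and Tac1 did not pass the test between MGE and CGE interneurons. Cck, classically a CGE peptide in the adult, was at 8.39 and 33.0 CPM in MGE and 12.5 and 2.94 CPM in CGE interneurons, so the libraries went opposite ways (adjusted p = 0.29 by edgeR with Benjamini-Hochberg adjustment). Tac1, the substance P precursor, was at 31.6 and 6.98 CPM in MGE against 2.78 and 2.94 CPM in CGE interneurons. A single MGE cell of library 1 held 38 of the 64 Tac1 UMIs of that sum, and without it the level there was 12.9 CPM. Of 20 processing and vesicle genes tested, 1 was called higher and 2 lower in MGE interneurons (median log2 fold change 0.05, against 0.04 over all genes). Pam, the enzyme that amidates peptides, was at 452 and 440 CPM in MGE and 220 and 191 CPM in CGE interneurons. Scg2, a granin of dense-core vesicles, was at 1.48 and 1.90 CPM against 44.5 and 11.8 CPM.

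The order of Npy levels ran from MGE interneurons over MGE neurons with Nkx2-1 or Lhx8 and layer 6 to layer 5, and the first 3 of these did not overlap with the next in line. The Nkx2-1/Lhx8 gate takes MGE-derived neurons that keep the ventral regulators Nkx2-1, Lhx8 or Gbx1, and it held 315 and 283 CPM of Npy (299 ± 22.9). Layer 6 held 175 and 208 CPM (192 ± 23.4). Layer 5 had 49.7 and 25.5 CPM, but 29 of its 39 UMIs in library 1 came from 1 cell. Upper-layer, CGE, LGE-type (markers of the lateral ganglionic eminence) and dSPN sums lay between 17.6 and 27.8 CPM and overlapped one another. In cells that should lack the peptide, Npy reached 6.17 and 14.8 CPM in endothelial cells, 9.35 and 29.9 CPM in microglia, and 11.8 and 39.7 CPM in erythroid cells. In library 2, 1 endothelial cell held 8 of 15 UMIs and 1 erythroid cell 18 of 36, and without these cells the levels were 7.04 and 20.1 CPM. The library 1 backgrounds come from 3, 2 and 6 UMIs, with 95% upper limits of 18.0, 33.8 and 25.7 CPM. In cells thinned to 1500 UMIs each, the share with Npy was 2.46% to 4.62% in library 1 and 2.40% to 4.68% in library 2 over these 4 neuronal types, against 2.84% to 5.26% and 3.49% to 4.76% over the 3 other types. Mural cells lay lower, at 4.91 and 5.45 CPM of Npy and thinned shares of 2.33% and 1.43%. Radial glia had thinned shares of 1.62% and 1.64%, but their levels were 7.15 and 38.3 CPM. In library 2, 1 of these cells held 55 of 130 UMIs, and without it the level was 22.2 CPM. The low neuronal levels thus overlapped some types that should lack the peptide and exceeded mural cells in both libraries.

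Counted per cell, Npy was concentrated in a minority of MGE interneurons. At least 1 UMI was found in 38.6% and 33.9% of them, and at least 2 in 24.2% and 21.2%. After thinning every cell to 1500 UMIs, 26.5% and 23.4% of MGE interneurons, 23.9% and 21.1% of Nkx2-1/Lhx8 MGE neurons and 7.56% and 10.2% of layer 6 cells kept a UMI. The corresponding share was 5.26% and 3.81% in endothelial and 2.84% and 3.49% in erythroid cells. Before thinning, the medians were 3073 and 3364 UMIs in MGE interneurons, 6314 and 5477 in layer 6, and 11562 and 8576 in endothelial cells. Cells with 10 or more Npy UMIs were 35 and 28 in number and carried 58.2% and 40.1% of the Npy UMIs of the MGE interneuron gate, with a highest value of 57 and 63 in a cell.

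**Figure D2:**
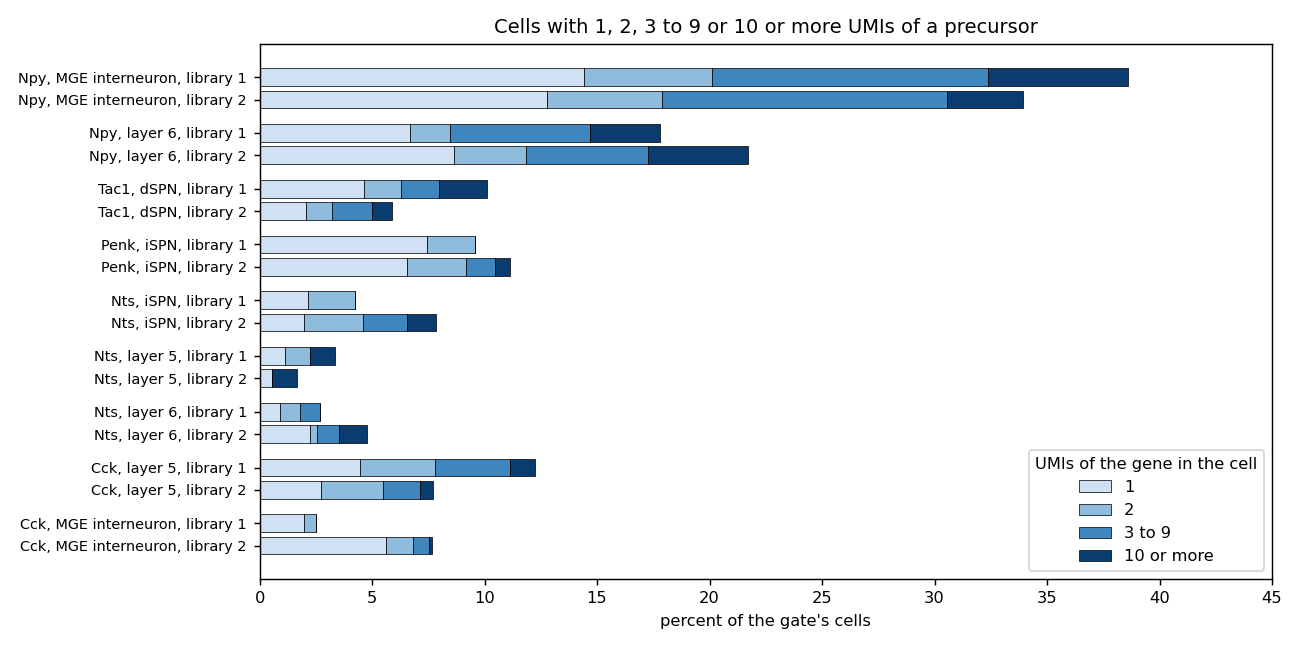
Percent of cells of a gate with 1, 2, 3 to 9, or 10 or more UMIs of a precursor, for each library. The bars for Npy in MGE interneurons reach 38.6% and 33.9%, while those for Nts in layer 5 and layer 6 stay under 5% although a few cells hold 10 or more UMIs.

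Npy and Sst were often found in the same MGE interneurons. With at least 2 UMIs as the cut, 59 and 73 MGE interneurons held Sst, and 49.2% and 61.6% of these also held Npy. Conversely, 21.3% and 25.9% of the cells with Npy held Sst, against 7.04% and 4.32% of the cells without it. In sums, cells with at least 2 Sst UMIs had 1353 and 1283 CPM of Npy (1318 ± 49.4), and cells with none had 404 and 243 CPM (323 ± 114). The groups did not overlap, with a log2 fold change of 2.07 ± 0.19 (SE; adjusted p = 0.0015, edgeR with Benjamini-Hochberg adjustment over 10150 genes). The median depth of the Sst-positive cells was 3978 and 5046 UMIs and that of the Sst-negative cells 3005 and 3265, and the part of depth in this difference was not tested.

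Tac1 was the other member called in this split by Sst, which makes 2 of 3 tested, where 0.759% of genes were called higher and 0.276% lower. Its level was 206 and 13 CPM in Sst-positive cells and 5.29 and 6.41 CPM in Sst-negative cells. The log2 fold change was 3.63 ± 0.70 (SE; adjusted p = 0.0496 by edgeR with Benjamini-Hochberg adjustment), and the ratio within a library was 5.14 on the log2 scale in library 1 and 0.997 in library 2. The richest MGE cell held 38 UMIs in library 1, so 1 cell sets much of the first value. The call was lost in each of 3 alternatives: DESeq2 (adjusted p = 0.755), no library block (0.169 by edgeR) and Sst cut at 1 UMI (0.236 by edgeR). Cck was at 11.7 and 67.7 CPM against 5.29 and 27.7 CPM and did not pass the test (adjusted p = 0.171 by edgeR). Pcsk1n, an inhibitor of prohormone convertase, was the 1 gene of 17 tested in the processing list that was called, at 354 and 331 CPM in Sst-positive against 123 and 169 CPM in Sst-negative cells.

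Against MGE interneurons, neurons with Nkx2-1 or Lhx8 had no member called by edgeR among 5 tested. At an unadjusted p under 0.05 there were 2, and DESeq2 called 1, which was Cck. Other edgeR settings called 1 (no library block) or 2 (no filter on low counts, only the types compared, the stricter gate, or the richest cells left out). Npy was lower in both libraries, with a log2 fold change of −0.72 ± 0.23 (SE; adjusted p = 0.0772, edgeR with Benjamini-Hochberg adjustment). Cck was at 1.78 and 0 CPM in the Nkx2-1/Lhx8 gate. In this comparison 4.46% of genes were called higher and 5.04% lower, and the median depth was 6026 and 5272 UMIs in the Nkx2-1/Lhx8 gate against 3073 and 3364 in MGE interneurons. Of 20 processing genes tested, 1 was called higher and 2 lower, and of 10 receptors 2 were called higher. Syt4, a synaptotagmin of dense-core vesicles, was at 135 and 50.2 CPM in the Nkx2-1/Lhx8 gate against 43.4 and 36.5 CPM, and Pam at 173 and 153 CPM against 452 and 440 CPM. Tacr1, the substance P receptor, was at 24.9 and 18.2 CPM against 5.43 and 3.17 CPM, and Oprm1, the mu opioid receptor, at 16 CPM in both libraries against 4.44 and 3.49 CPM. With the cut at 2 UMIs, 0 and 3 of the 20 and 17 Npy cells of the Nkx2-1/Lhx8 gate held Sst, which 6 and 7 of its cells held in all.

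The striatal-type neurons in the dissected tissue already separated by precursor. Tac1 stood at 104 and 72.4 CPM in dSPN (88.3 ± 22.5) and at 0 and 2.78 CPM in iSPN, and Penk, the enkephalin precursor, at 25.1 and 51.4 CPM in iSPN (38.2 ± 18.6) and at 3.45 and 5.08 CPM in dSPN (4.26 ± 1.16). Neither gene overlapped between the gates, and neither was used to draw them. In summed UMIs the Tac1 ratio of dSPN to iSPN was 49.8, from 235 and 2 UMIs, with a 95% counting interval of 13.6 to 413. The Penk ratio of iSPN to dSPN was 9.45 (interval 4.94 to 19.5), from 48 and 12 UMIs.

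Both differences passed the test across types. The log2 fold change of dSPN over iSPN was 5.58 ± 1.07 (SE; adjusted p = 0.0128) for Tac1 and −3.14 ± 0.62 (adjusted p = 0.000171) for Penk, by edgeR with Benjamini-Hochberg adjustment. These were the 2 members called of 5 tested, where 1.82% of genes were called higher in dSPN and 1.68% lower. Penk reached 10 counts only in the iSPN sums (11 and 37 UMIs) and in the upper-layer sum of library 2 (11 UMIs). It thus entered the test only through iSPN, where it is high, and its call is no independent support for the difference. The Tac1 call was lost among cells with at least 3000 UMIs, where the log2 fold change was 5.56 (adjusted p = 0.0512 by edgeR), and among those under 5% mitochondrial, where it was 4.21 (adjusted p = 0.348 by edgeR). Penk had too few counts to be tested in those cells.

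Both precursors marked only some cells of their gate at this depth. At least 1 Tac1 UMI was found in 10.1% and 5.88% of dSPN, and in 0 and 1.31% of iSPN, and at least 1 Penk UMI in 9.57% and 11.1% of iSPN and in 0.840% and 1.47% of dSPN. Tac1 was found in 0 and 1.90% and Penk in 0 and 0.952% of endothelial cells, which are deeper. With at least 2 UMIs as the cut, the dSPN gate held 13 and 13 Tac1 cells and 1 and 1 Penk cells, and the iSPN gate 2 and 7 Penk cells and 0 and 0 Tac1 cells, too few for their overlap to be read. Tac1 was uneven between dSPN cells, with 5 and 3 cells of 10 or more UMIs holding 69.4% and 52.6% of the Tac1 sum.

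Most genes of peptide handling did not pass the test between the same gates. Of 20 processing and vesicle genes tested, 3 were called, each of them higher in dSPN, where 1.82% of all genes were (median log2 fold change 0.18, against 0.04 over all genes). Pam was at 308 and 238 CPM in dSPN and 13.7 and 12.5 CPM in iSPN. Syt4 was at 123 and 79.4 CPM against 11.4 and 16.7 CPM. Of 10 receptors tested, 2 were called higher and 1 lower in dSPN, against 1.82% and 1.68% of all genes, with a median of −0.23. Npy1r, a receptor for neuropeptide Y, was at 27.6 and 36.2 CPM in dSPN and 0 and 1.39 CPM in iSPN, while Tacr1 was at 0 and 0.635 CPM in dSPN and 18.2 and 20.8 CPM in iSPN.

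Set against MGE and CGE interneurons, the striatal gates were higher in Penk and Nts and lower in Npy. These were 3 members called of 5 tested, where 7.00% of 14373 genes were higher and 8.12% lower in striatal types. Averaged over the 2 gates of a side, Penk was at 14.3 and 28.2 CPM against 0.494 and 0.649 CPM (log2 fold change 4.39 ± 0.71, SE; adjusted p = 1.03e-06 by edgeR with Benjamini-Hochberg adjustment). The cortical sums held 3 Penk UMIs in MGE and 1 in CGE interneurons over both libraries. Penk passed the filter on low counts only through the iSPN sums, so its call here is no independent support either. Npy was at 15 and 12.4 CPM against 300.0 and 201 CPM (log2 fold change −3.10 ± 0.47; adjusted p = 0.000422 by edgeR). This call was lost among cells under 5% mitochondrial (−3.70, adjusted p = 0.151 by edgeR).

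Nts, the neurotensin precursor, was at 12.4 and 47.4 CPM in the striatal types against 3.32 and 4.37 CPM (log2 fold change 2.90 ± 0.69, SE; adjusted p = 0.0161 by edgeR with Benjamini-Hochberg adjustment). Both libraries went the same way without overlap. The call was lost without the library block (adjusted p = 0.167 by edgeR) and under the stricter gate (0.130 by edgeR), and with library 2 left out the log2 fold change was 1.87. Within the striatum Nts was at 13.7 and 76.4 CPM in iSPN and 11.2 and 18.4 CPM in dSPN, which did not differ beyond the test (log2 fold change −1.63 ± 0.72; adjusted p = 0.434 by edgeR). Of the other genes tested, 1 of 9 precursors was called, lower in striatal types, 1 of 20 processing genes higher and 6 lower, and 2 of 10 receptors higher and 1 lower. Oprm1, on which enkephalins act, was at 69.8 and 71.8 CPM in the striatal types and at 2.92 and 2.73 CPM in the interneurons. Pcsk1, a prohormone convertase, showed the reverse, at 0 and 0.318 CPM against 17.4 and 18.4 CPM. Cadps2, a priming factor for dense-core vesicles, was at 13 and 8.06 CPM against 35.0 and 52.5 CPM, and Pnoc, the nociceptin precursor, at 3.02 and 4.94 CPM against 18.4 and 11.4 CPM. Sort1, a sorting receptor that binds neurotensin, was at 100.2 and 82.2 CPM against 57.6 and 57.2 CPM.

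**Figure D3:**
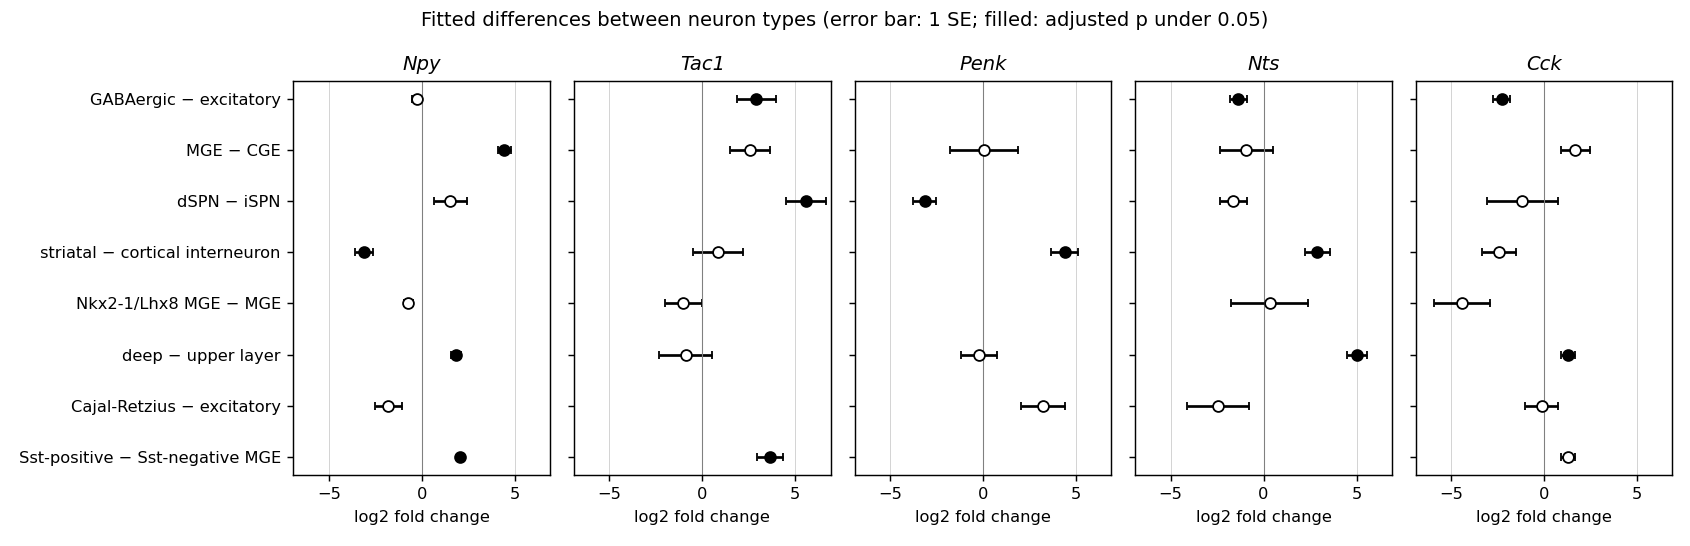
Log2 fold change (first minus second type) of each tested member in 8 comparisons, with error bars of 1 SE from the edgeR fit. Filled points passed an adjusted p of 0.05. Points with an SE of 3 or more are left out, as are members not tested. Npy is filled at 4.44 for MGE against CGE, and Tac1 and Penk are filled on opposite sides of 0 for dSPN against iSPN.

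Among excitatory neurons, the mean of layers 5 and 6 exceeded the upper layers in Npy, Cck and Nts. These were 3 members called of 5 tested, and 8.82% of genes were called higher and 6.08% lower in deep layers. Averaged over both deep layers, Npy was at 112 and 117 CPM in deep layers (115 ± 3.12) and at 18.8 and 26.9 CPM in upper layers (22.8 ± 5.78). The log2 fold change was 1.83 ± 0.27 (SE; adjusted p = 0.000299 by edgeR with Benjamini-Hochberg adjustment), and it lost its call under the stricter gate and among cells under 5% mitochondrial. For Npy this mean rested on layer 6, since layer 5 at 49.7 and 25.5 CPM overlapped the upper layers, and with the richest cell of each sum left out layer 5 was at 12.9 CPM against 16.2 CPM in library 1. Cck was at 31.8 and 23.8 CPM against 9.51 and 10.8 CPM (log2 fold change 1.29 ± 0.39; adjusted p = 0.0427 by edgeR), a call that 6 of 11 alternatives lost.

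Nts rested on few cells. It was at 22.9 and 78.8 CPM in layer 5 and 10.8 and 123 CPM in layer 6, against 1.64 and 1.78 CPM in upper layers. Within layers 5 and 6 the libraries differed by more than these 2 layers did. In library 2, 1 layer 6 cell held 156 of 243 Nts UMIs and 1 layer 5 cell 76 of 102. The log2 fold change of deep over upper layers was 5.03 ± 0.52 (SE; adjusted p = 4.81e-05 by edgeR with Benjamini-Hochberg adjustment). With the richest cell of each sum left out, layer 5 held 3.89 and 20.2 CPM and layer 6 held 5.73 and 44.3 CPM, and the log2 fold change was 3.34 and still called, in a fit added after seeing the data. At least 2 Nts UMIs were found in 4 and 8 of 225 and 313 layer 6 cells, and in 2 and 2 of 90 and 182 layer 5 cells.

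Cck had its highest level in layer 5, at 47.2 and 30.9 CPM (39.0 ± 11.5). MGE interneurons, Cajal-Retzius cells and layer 6 followed at means of 20.7, 19.0 and 16.6 CPM, and each of the first 3 types overlapped with the next in this order. Layer 6, at 16.4 and 16.7 CPM, lay above upper layers at 9.51 and 10.8 CPM. In endothelial cells Cck was 0 in both libraries, and in erythroid cells it was 5.90 and 7.72 CPM.

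Of 20 processing genes tested between layers, 9 were called higher and 4 lower in deep layers and 7 did not pass, where 8.82% and 6.08% of all genes were called (median log2 fold change 0.54, against −0.02 over all genes). The convertases Pcsk5 and Pcsk2 were at 78.0 and 88.1 CPM and at 116 and 100.3 CPM in deep layers, against 1.47 and 0.891 CPM and 12.2 and 13.4 CPM in upper layers. Adcyap1, which encodes the peptide PACAP, was the 1 other precursor called of 9 tested, at 17.8 and 22.4 CPM against 2.85 and 3.76 CPM. Of 10 receptors tested, 1 was called, and it was higher.

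Npy in layer 6 came from a minority of cells. Cells with at least 3 Npy UMIs were 21 of 225 and 31 of 313 (9.33% and 9.90%), and they carried 91.7% and 88.6% of the Npy UMIs of the gate. The cut was chosen after these values were seen, and Npy itself is therefore only described: it was at 1682 and 1898 CPM in the Npy-rich cells. Gad1, Gad2, Slc32a1, Lhx6 and Sst together had 3 and 3 UMIs in the 21 and 31 Npy-rich cells and 23 and 53 UMIs in the 185 and 245 cells without Npy. The excitatory gate limits the first 3 of these genes by its rule, so their low counts are no finding about the Npy-rich cells.

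The Npy-rich cells differed from the 185 and 245 layer 6 cells without Npy in other genes. Of 9734 genes tested, 1.43% were called higher and 1.35% lower in Npy-rich cells. Foxp2, a layer 6 transcription factor that is also a marker of the gate, was at 1325 and 1263 CPM against 493 and 348 CPM (log2 fold change 1.67 ± 0.13, SE; adjusted p = 1.48e-06 by edgeR with Benjamini-Hochberg adjustment). Cdh6, Necab1, Caln1 and Ccbe1 were among the 5 called genes with the largest rise and at least 100 CPM in both libraries. Their log2 fold changes were 1.88, 1.77, 1.71 and 1.70.

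Several genes were not found in the Npy-rich cells at all. Nr2f2, the regulator COUP-TFII, had 0 UMIs there and 242 and 187 CPM in the Npy-free cells, which makes it at least 24.3-fold lower against a floor of 3 UMIs over both libraries. The guidance receptor Nrp2 and the GABA receptor subunit Gabra2 were at least 15.1-fold and 13.8-fold lower by the same floor. Slit2, a guidance ligand, was at 6.62 and 5.2 CPM against 117 and 197 CPM. Other markers did not pass the test. Tbr1, a regulator of layer 6 and other early-born neurons, had a log2 fold change of 0.24 ± 0.22 (adjusted p = 0.792 by edgeR), and Tle4, a layer 6 marker of the gate, 0.46 ± 0.12 (adjusted p = 0.0516 by edgeR). Bcl11b, a layer 5 marker, was at −0.31 ± 0.15, and Neurod6, a general excitatory gene, at 0.21 ± 0.12.

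Of the 2 members tested besides Npy in this split, 1 was called, where 1.43% of genes were called higher and 1.35% lower in Npy-rich cells. Nts was at 0 and 5.2 CPM in Npy-rich and at 13 and 157 CPM in Npy-free cells, a difference called by edgeR (adjusted p = 0.000491 with Benjamini-Hochberg adjustment) and lost without the library block (adjusted p = 0.851 by edgeR), while DESeq2 gave no adjusted p. It came from 1 UMI against 257, most of them in the single rich cell of library 2 described above. Nts passed the filter on low counts only through the Npy-free sums, where it is high, so its call is no independent support for a difference. Cck was at 19.9 and 10.4 CPM against 11.5 and 17.0 CPM and did not pass the test. Median depth was 6353 and 5467 UMIs in Npy-rich cells and 6314 and 5390 UMIs in Npy-free cells.

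**Figure D4:**
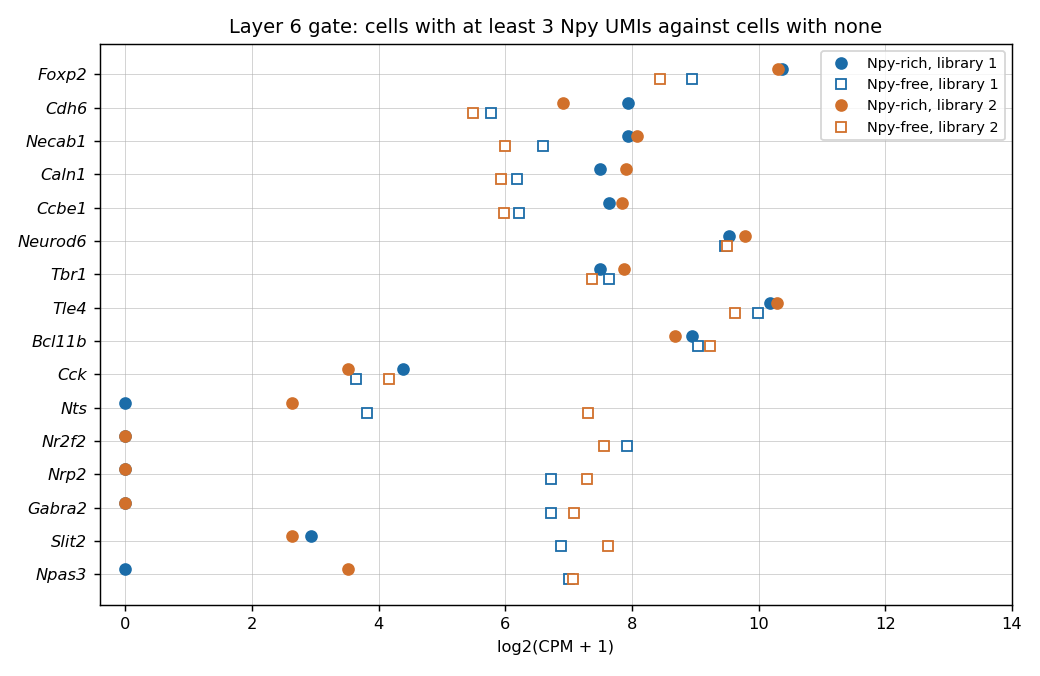
Levels as log2(CPM + 1) in layer 6 cells with at least 3 Npy UMIs (filled circles) and with none (open squares), for each library. Foxp2 and Cdh6 lie higher in Npy-rich cells, Nr2f2, Nrp2 and Gabra2 lie at 0 there, and Neurod6 and Tbr1 did not pass the test.

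Across transmitter classes the precursors were not split in a single direction. The mean over the 6 GABAergic types exceeded that over the 3 excitatory types for Tac1 and was below it for Cck and Nts, so 1 member was called higher and 2 lower of 5 tested, where 14.2% and 20.4% of genes were called. Tac1 was at 24.0 and 17.6 CPM in GABAergic types against 1.67 and 0.531 CPM in excitatory types (log2 fold change 2.91 ± 1.03, SE; adjusted p = 0.0498 by edgeR with Benjamini-Hochberg adjustment), and 7 of 11 alternatives lost the call. Its mean was 88.3 CPM in dSPN, 19.3 CPM in MGE interneurons and 10.0 CPM in the Nkx2-1/Lhx8 gate. In CGE, LGE-type and iSPN gates it was 2.86, 2.81 and 1.39 CPM, against 1.40, 1.27 and 0.637 CPM in upper layers, layer 6 and layer 5. Cck was at 5.23 and 7.57 CPM against 24.4 and 19.5 CPM (log2 fold change −2.28 ± 0.45; adjusted p = 0.00149 by edgeR). The Cck call was lost among cells under 5% mitochondrial.

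Nts was at 6.25 and 18.8 CPM in GABAergic types against 11.8 and 67.8 CPM in excitatory types (log2 fold change −1.35 ± 0.44; adjusted p = 0.0379 by edgeR with Benjamini-Hochberg adjustment), with overlapping ranges across libraries. The call was lost in 5 of 11 alternatives (adjusted p = 0.220 by edgeR without the library block), and with library 2 left out the log2 fold change was −0.64. Npy showed how the scale matters for a gene that is high in few types. Its plain mean was higher in GABAergic types, at 161 and 122 CPM against 81.2 and 86.9 CPM, while the fitted mean of logs was −0.28 ± 0.23 and did not pass the test. Of the other genes tested between these classes, 2 of 9 precursors were called higher and 3 lower in GABAergic types, 4 of 20 processing genes higher and 8 lower, and 1 of 10 receptors higher and 4 lower. Adcyap1, the precursor of the peptide PACAP, was at 0.458 and 0.106 CPM in GABAergic and 12.8 and 16.2 CPM in excitatory types. Syt4 was at 61.8 and 39.9 CPM against 189 and 186 CPM, and Cadps2 at 20.1 and 30.6 CPM against 8.19 and 6.64 CPM. Ntsr1, through which neurotensin acts, was at 3.44 and 1.85 CPM in GABAergic and 16.6 and 16.5 CPM in excitatory types. Oprm1 had the opposite order, at 28.3 and 30.2 CPM against 4.64 and 6.67 CPM.

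Cajal-Retzius cells, the early reelin-secreting cells of the marginal zone, had no member called against the excitatory types by edgeR among 5 tested. At an unadjusted p under 0.05 there were 2, and DESeq2 called 2. With edgeR, 5 other settings called 1. Penk was at 0 and 13.6 CPM there, from 4 UMIs in library 2. In this comparison 5.85% of genes were called higher and 7.28% lower, and 1 other precursor was among them. Pnoc was at 70.6 and 68.0 CPM in Cajal-Retzius cells and 0.537 and 1.17 CPM in excitatory types (log2 fold change 6.09 ± 0.52, SE; adjusted p = 3.98e-16 by edgeR with Benjamini-Hochberg adjustment). The vesicle genes Ptprn and Scg2 were at 51.7 and 88.4 CPM and at 51.7 and 57.8 CPM, against 3.77 and 4.84 CPM and 5.0 and 6.17 CPM. They were among 6 processing genes called higher and 3 lower of 20 tested. Of 10 receptors 2 were called higher and 4 lower. Ntsr1 was at 0 in both libraries of Cajal-Retzius cells against 16.6 and 16.5 CPM, and Adcyap1r1, the PACAP receptor, at 4.70 and 0 CPM against 13.6 and 15.4 CPM.

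Outside neurons, 2 members reached levels in the range of their neuronal types, partly through single cells. Nts was at 88.4 and 50.9 CPM in mural cells, the pericytes and smooth muscle of vessels, from 36 and 28 UMIs, with at least 1 UMI in 7 of 43 and 6 of 70 cells. In library 2, 1 mural cell held 19 of the 28 UMIs, and without the richest cell of each library the levels were 61.4 and 16.5 CPM. Penk was at 31.9 and 27.5 CPM in fibroblasts, from 18 and 33 UMIs. In library 1, 1 fibroblast held 11 of the 18 UMIs, and without the richest cell of each library the levels were 13 and 22.7 CPM, which overlapped iSPN on the same footing (20.8 and 37.8 CPM). Microglia had 0 UMIs of Nts and of Penk in both libraries.

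The pattern of a member over the 10 neuron types was compared with that of the 9007 genes that reached 20 CPM in a type, by Pearson correlation of mean log2(CPM + 1). The closest genes were Ube4a, Dlgap1 and Gm41609 for Npy (r = 0.90, 0.90 and 0.89), Akap5 and Cntnap3 for Tac1 (0.94 and 0.91) and Mcu, Stk32b and Nbeal1 for Penk (0.94, 0.92 and 0.92). For Cck they were Alg13, Tmem35a and Thra (0.95, 0.93 and 0.92), and for Nts Mphosph6, Rusc1 and Ssbp2 (0.85, 0.84 and 0.83). With 10 types from the same 2 libraries these values are a description only.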

How the data were processed

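Single-cell RNA-seq was analysed from 2 WT libraries of E16.5 mouse cerebral cortex. Per the labels and file headers, the authors made the deposited counts, whole UMI counts per gene and barcode without normalization, with Cell Ranger (7.0.0 in the submitters' processing notes, 7.1.0 in the headers) and mm10. Members and gene lists were chosen with earlier results of these data known. Cells with 1500 to 60000 UMIs and under 10% mitochondrial UMIs were gated: neurons needed at least 3 class UMIs, the other class at most 25% of these, and 2 distinct subtype markers leading by 1. Doublets were kept, and removal with Scrublet (scanpy 1.11.5) was an alternative. UMIs were summed per library and type (20 sums, at least 20 cells each) and CPM taken over all UMIs. Genes with at least 10 counts in 2 sums were tested with edgeR 4.0.16 (TMM, quasi-likelihood, library as a block, Benjamini-Hochberg, threshold 0.05), in R 4.3.3. All types shared 1 estimate of spread. The Sst split and the layer 6 split were each fitted alone, on the sums of their 2 sides in 2 libraries. Adjusted p-values measure only the spread between 2 libraries. Counting intervals (95%, exact) cover counting error only. From each list the 2 called genes with the largest change, at least 10 CPM and 1 direction in both libraries were named. In the layer 6 split, genes were named after their values were seen. Alternatives were DESeq2 1.42.0, other scalings, gates, filters and left-out libraries. Promoters are from RefSeq (GRCm38.p6), for 7 of 9 members. A gene in the layer 6 split and a gene among the closest patterns are not reported here.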

Additional observations from a re-analysis of the deposited data

How the results depend on the processing

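Of 15 called differences of a member, 0 reversed in an alternative and 5 kept their call in every alternative with a value: Npy for MGE against CGE interneurons (log2 fold change 4.34 to 4.94) and for Sst-positive cells (1.66 to 2.08), Penk in both striatal comparisons (7 alternatives, the rest having too few counts), and Nts for deep against upper layers (3.34 to 6.31). The other 10 lost the call somewhere: Tac1 (7 of 11 alternatives), Nts (5) and Cck (1) between transmitter classes, Cck (6) and Npy (2) between layers, Nts (2) and Npy (1) for striatal types, Tac1 (2) for dSPN, Tac1 for Sst-positive cells (3 of 3) and Nts in the layer 6 split (1 of 1, DESeq2 giving no adjusted p). Left with 1 library at a time, all 15 kept their sign, but without library 2 the log2 fold change was 1.45 for Tac1 and −0.64 for Nts between classes, 8.93 for Tac1 in dSPN, 1.87 for Nts in striatal types and 3.1 for Nts between layers, and without library 1 it was 0.997 for Tac1 in Sst-positive cells. Penk entered both of its tests only through the iSPN sums, and Nts the layer 6 split only through the Npy-free sums. Why calls changed was not tested.

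The number of members called moved as follows. For GABAergic against excitatory types it was 2 with library totals and under the stricter gate, 1 with only the types compared, without the library block, with doublets removed and at 3000 UMIs or more, and 0 under 5% mitochondrial. For MGE against CGE interneurons it was 3 without a filter on low counts (Tac1 and Cck added) and 2 with only the types compared. For dSPN against iSPN it was 3 without the filter and with only the types compared, 1 under the stricter gate and 0 at 3000 UMIs or more and under 5% mitochondrial. For striatal against interneuron types it was 4 with DESeq2 and without the filter, and 2 without the block, at 3000 UMIs or more and without the richest cell. For deep against upper layers it was 2 with DESeq2, with doublets removed, at 3000 UMIs or more and without the richest cell. For both it was 1 under the stricter gate and under 5% mitochondrial. For Nkx2-1/Lhx8 neurons it was 1 with DESeq2 and without the block, and 2 without the filter, with only the types compared, under the stricter gate and without the richest cell, a setting added after seeing the data. For Cajal-Retzius cells it was 2 with DESeq2 and 1 with library totals, without the filter, with only the types compared, without the block and with doublets removed. For the Sst split it was 1 with DESeq2, without the block and with Sst cut at 1 UMI, each losing Tac1. For the layer 6 split, added after seeing the data, it was 0 without the block and with DESeq2, which gave Nts no adjusted p.

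Counts over all genes moved by more than 1.5 times under 5% mitochondrial (579 against 1060 for MGE and CGE, 321 against 504 for dSPN and iSPN, 1398 against 2173 for striatal types, 682 against 1366 for Nkx2-1/Lhx8 neurons, 1398 against 2141 for layers), under the stricter gate (3000 against 4977 for transmitter classes, 669 against 1060 for MGE and CGE), with Sst cut at 1 UMI (224 against 105) and with DESeq2 in the layer 6 split (63 against 270). Under 5% mitochondrial the Cajal-Retzius gate fell under 20 cells and was not fitted. The planned subplate comparison was not run, since its gate was empty.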
